A study of Mus musculus with 6 samples.

Results

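The p53 family and its target genes are described here through the distal regions to which their promoters were linked in mouse embryonic stem cells (mESCs). The 9 genes were chosen by name: the family members Trp53, Trp63 and Trp73, the inhibitors Mdm2 and Mdm4, and the targets Cdkn1a, Ccng1, Bbc3 and Bax. They are 9 of 21202 genes that a HiCap replicate listed, and all 9 were listed in both replicates. HiCap is Hi-C followed by sequence capture of promoter fragments, so that a listed interaction joins a captured promoter fragment to a distal region. The cells of all groups were of the R1 line, kept undifferentiated in serum and LIF, untreated, fixed with formaldehyde and digested with MboI, which cuts at GATC. The groups used here are HiCap and Hi-C without capture, with 2 biological replicates each; the HiCap replicates have 1 list each and the Hi-C replicates share 1 list. Capture-C replicates belong to the series and were not analysed here. An interaction was called when the same promoter fragment and distal region stood in both HiCap lists.

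p53 is a transcription factor that is held at low levels by MDM2, a ubiquitin ligase whose own gene p53 activates, and by MDM4, a relative of MDM2 that binds the activation domain of p53. After DNA damage p53 accumulates and activates genes that stop the cell cycle or start apoptosis. It binds a response element made of a pair of decamers, often separated by a spacer. The relatives p63 and p73 bind similar elements and are best known for roles in epithelia and in the nervous system.

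The lists hold positions on mm9 and no read numbers, so depth per interaction is not known from them, and no test between replicates was possible. HiCap replicate 1 listed 499746 interactions, replicate 2 listed 553977 and Hi-C listed 74807. In replicate 2, 19.4% of interactions spanned over 1 Mb, and in replicate 1 0.371% did. Each interval below is an exact (Clopper-Pearson) 95% binomial interval and covers counting error alone; those with a fragment in common are not independent observations.

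The sequences below belong to the called regions and promoter fragments to which the results return. They are on the plus strand of mm9, with the first and last base counted from 1. In the regions up to 300 bp, capitals mark the MboI site at the start and any p53 decamer, and in the windows around a full p53 element they mark both decamers. The first is the only region of up to 300 bp outside UTRs that was called from all 3 promoter fragments of Cdkn1a, in an intron of that gene (chr17:29232764-29232962). The second is a Hi-C-supported region of Trp53 in an intron of its neighbour Wrap53 (chr11:69381067-69381281). The third and the fourth are adjoining regions that each overlap an exon of Bax, in whole or in part (chr7:52718718-52718786 and chr7:52718787-52718843). The latter is also in the Hi-C list. The windows lie in the Cdkn1a promoter fragment (chr17:29227811-29227922), in Mdm2 regions inside the gene (chr10:117136937-117137036) and upstream of it (chr10:117154752-117154851), in the Bbc3 gene body (chr7:16901163-16901263) and in the Mdm4 gene body (chr1:134916832-134916931).
Cdkn1a intron region: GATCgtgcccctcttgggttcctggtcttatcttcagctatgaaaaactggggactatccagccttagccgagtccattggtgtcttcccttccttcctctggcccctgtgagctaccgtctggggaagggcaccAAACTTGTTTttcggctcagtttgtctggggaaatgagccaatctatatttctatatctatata
Trp53 region in Wrap53: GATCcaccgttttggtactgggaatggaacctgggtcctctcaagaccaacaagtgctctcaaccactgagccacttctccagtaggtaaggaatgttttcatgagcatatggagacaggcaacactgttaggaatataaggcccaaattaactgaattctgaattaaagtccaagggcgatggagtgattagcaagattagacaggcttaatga
Bax exon region, 69 bp: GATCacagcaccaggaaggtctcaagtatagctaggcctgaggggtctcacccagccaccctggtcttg
Bax exon region, 57 bp: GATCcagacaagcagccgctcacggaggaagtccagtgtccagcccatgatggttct
Cdkn1a promoter window: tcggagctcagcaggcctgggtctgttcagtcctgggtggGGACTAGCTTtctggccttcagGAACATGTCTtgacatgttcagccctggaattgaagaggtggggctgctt
Mdm2 intron window: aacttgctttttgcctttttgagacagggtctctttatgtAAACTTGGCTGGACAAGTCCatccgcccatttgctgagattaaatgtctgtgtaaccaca
Mdm2 upstream window: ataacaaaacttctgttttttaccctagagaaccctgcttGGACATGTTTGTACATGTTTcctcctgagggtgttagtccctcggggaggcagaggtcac
Bbc3 window: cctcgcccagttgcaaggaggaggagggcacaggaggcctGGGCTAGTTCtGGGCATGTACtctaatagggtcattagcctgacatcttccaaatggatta
Mdm4 window: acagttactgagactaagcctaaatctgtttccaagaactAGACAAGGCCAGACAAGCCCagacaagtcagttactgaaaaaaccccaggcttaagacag

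The 9 genes had 807 interactions in HiCap replicate 1 and 695 in replicate 2, of which 212 were called, to 181 distinct distal regions. Called interactions made up 26.3% of those of replicate 1 (23.3 to 29.5), against 19% of all interactions of that list, and 30.5% of those of replicate 2 (27.1 to 34.1), against 17.1% of all. Counted by gene and distal region, these were 31.9% and 33.9%, against 20.2% and 17.8% of all. Most of the 212 calls were of Mdm2 (90), Cdkn1a (58) and Trp53 (39). Their called shares were 37.2%, 27.5% and 50.6% in replicate 1 and 30.1%, 51.8% and 30.5% in replicate 2. Of the other genes, only Trp73 (20.7%) exceeded 19% in replicate 1, where Ccng1, Bax, Bbc3, Mdm4 and Trp63 had 18.2% or less. The intervals of Trp73 (7.99 to 39.7), Ccng1, Bax and Trp63 in that list held 19%. In replicate 2 Bax (57.1%), Bbc3 (43.5%) and Mdm4 (30%) exceeded 17.1%, and Trp73 (11.1%), Ccng1 (5%) and Trp63 (no call) did not. Bax had only 7 interactions there (interval 18.4 to 90.1) and Mdm4 10 (6.67 to 65.2). The intervals of Mdm4 and Trp73 in that list held 17.1%. Of the 9 genes, 8 had a call (88.9%, interval 51.8 to 99.7), against 60.8% of all listed genes and 77.2% of the genes with at least 2 listed promoter fragments. Mdm4, Ccng1 and Bax had only 1 listed promoter fragment each, so the latter share does not match all 9 genes. Of the 18 promoter fragments listed for the 9 genes, 15 had a call, against 51.9% of all promoter fragments. The 9 genes had more listed interactions than the typical gene, with medians of 54 and 40 in replicates 1 and 2 against 12 and 11 over all listed genes, and the part of this in the shares of called interactions was not tested.

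Calls were unequal among the genes. Mdm2 had 90 called interactions, Cdkn1a 58 and Trp53 39, and only 15, 84 and 273 of the 21202 genes had as many or more, each gene itself included. Bbc3 had 10, Trp73 6, Bax 4, Mdm4 3, Ccng1 2 and Trp63 none, and the median over all listed genes was 1. Neither list had the more interactions throughout: 4 of the 9 had more interactions in replicate 1, as had 8056 of the 17384 genes listed in both.

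**Figure D1:**
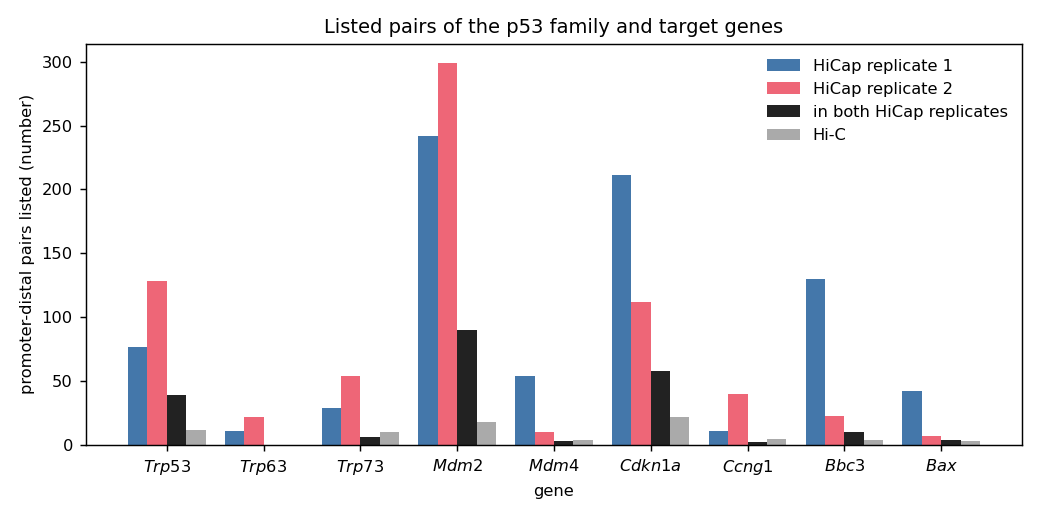
Number of listed interactions (y axis) of each of the 9 genes (x axis) in HiCap replicate 1, HiCap replicate 2, both HiCap replicates and the Hi-C list. Mdm2, Cdkn1a and Trp53 have the most called interactions, with 90, 58 and 39, and Trp63 has none.

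**Figure D2:**
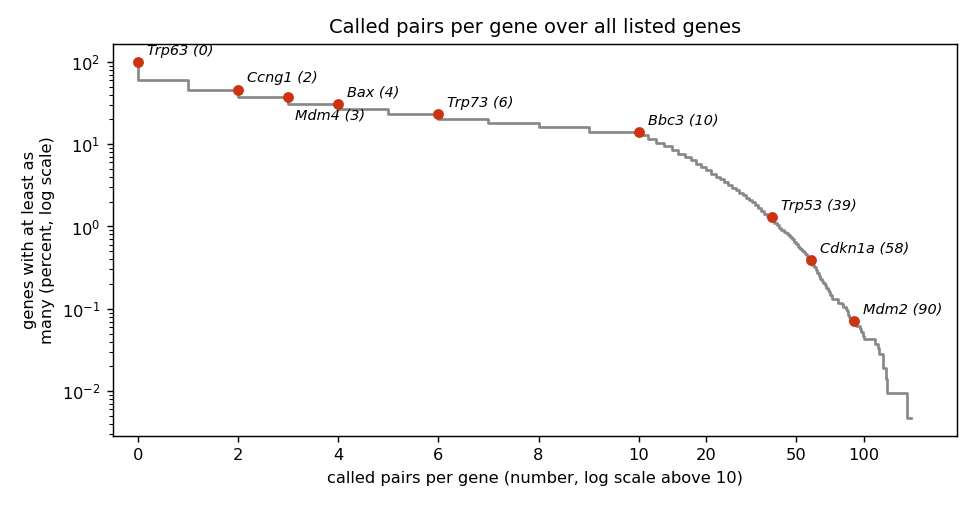
Share of the 21202 listed genes (y axis, percent, log scale) with at least as many called interactions as the value on the x axis (log scale above 10), with the 9 genes marked by points and their number of calls in brackets. The points run from 0 for Trp63 to 90 for Mdm2.

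Among the family members, Trp53, which encodes p53, had 77 interactions in replicate 1 and 128 in replicate 2, and its 39 calls were 50.6% of the former (39.0 to 62.2) and 30.5% of the latter (22.6 to 39.2). Nearly all came from the fragment at the gene start (chr11:69392396-69394471), with 73 interactions in replicate 1, 122 in replicate 2 and 37 calls. This fragment also holds an annotated start of Wrap53, the divergent neighbour that encodes a telomerase and Cajal body factor, so that the interactions of these starts cannot be told apart. A second fragment 8.34 kb inside the gene (chr11:69401817-69402624) had 4 and 6 interactions and 2 calls.

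The called regions of Trp53 lay on both sides of the gene, 19 upstream and 20 downstream. Wrap53 held 13 of the 39 calls, more than Trp53 itself with 5. Efnb3, the gene of ephrin-B3, held 3, Atp1b2, of a sodium pump subunit, held 2, and Kdm6b, of a histone demethylase, held 1. The nearest called region ended where the gene-start fragment began (chr11:69390465-69392394, 2.00 kb between midpoints). The farthest lay 173 kb upstream (chr11:69228596-69230650) and was called only from the internal fragment. Of the 39 calls, 53.8% lay in runs of adjoining regions, against 28.0% of all calls, and the longest run joined 5 regions in Wrap53 over 3194 bp. The 215-bp sequence printed above opens that run.

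Trp53 regions were also linked to neighbours. Of its 39 called interactions, 26 went to a region that another gene was linked to as well, against 33.5% of all calls. A region in Wrap53 (chr11:69387376-69388570) was called from both Trp53 fragments and was linked to 17 promoter fragments in all, of Trp53 and 12 other genes. A region 161 kb upstream (chr11:69232431-69233367) was also linked to 17 promoter fragments. By the Jaccard index of called regions, the genes most like Trp53 were Atp1b2 (0.244, 11 shared regions) and Efnb3 (0.231, 15 shared regions). These 11 regions were 28.9% of those of Trp53 and 61.1% of those of Atp1b2.

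Trp63, the gene of p63, was listed with 11 interactions in replicate 1 and 22 in replicate 2 and had no call. All 22 of replicate 2 and 10 of replicate 1 came from a fragment 118 kb inside the gene (chr16:25800847-25802222), and 1 of replicate 1 came from the gene start. The nearest regions of the replicates at the internal fragment were 0.702 kb apart. The interactions of replicate 1 had a median distance of 13.8 kb and those of replicate 2 a median of 279 kb, with 7 of the 22 over 1 Mb. Hi-C listed no interaction of Trp63. With none of 11 and none of 22 interactions shared, the upper limits of the called share were 28.5% and 15.4%, against 19% and 17.1% of all interactions. The shares of all interactions are not matched for distance. In replicate 2, 13 of the 22 Trp63 interactions spanned over 100 kb. Of all interactions of that list, 3.48% from 100 kb to 1 Mb and 0.0613% over 1 Mb were called.

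Trp73, the gene of p73, had 29 and 54 interactions and 6 calls, spread over 4 promoter fragments. The fragment at the gene start (chr4:153512265-153514454) had 6 and 14 interactions and no call, whereas 3 fragments 23.6, 43.0 and 54.9 kb inside the gene had 2, 1 and 3 calls. The 6 calls went to only 3 distinct regions, all inside Trp73. A region of 1565 bp (chr4:153454366-153455931) was called from all 3 of these fragments, at 4.08, 16.0 and 35.4 kb downstream, and from 2 of them it was also in the Hi-C list. The gene most like Trp73 was RP23-254N4.11 (Jaccard index 0.333, 1 shared region), followed by 1190007F08Rik (0.2, 1 shared region).

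Among the inhibitors, Mdm2 had 242 interactions in replicate 1 and 299 in replicate 2, and its 90 calls were 37.2% of the former (31.1 to 43.6) and 30.1% of the latter (24.95 to 35.6). They were nearly evenly divided between the fragment at the gene start (chr10:117147575-117149114, 93 and 151 interactions, 44 calls) and one 19.2 kb inside the gene (chr10:117128219-117128936, 149 and 148 interactions, 46 calls). The 90 calls reached 77 distinct regions, of which 13 were called from both fragments. Of these 13, the intron region of 571 bp whose window is printed above (chr10:117136882-117137453) was in the Hi-C list from both fragments, 11.2 kb downstream of the gene start and 8.59 kb upstream of the internal fragment.

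Inside Mdm2 itself lay 40 of the 90 calls, 18 from the start and 22 from the internal fragment. Cpm, the neighbour that encodes carboxypeptidase M, held 17, of which 14 came from the internal fragment and 3 from the start. Slc35e3 held 3, Nup107, a nuclear pore gene, held 2, and Rap1b and Yeats4 held 1 each. The region in Yeats4 (chr10:116653774-116654825) was the farthest, at 474 kb, and the nearest lay 2.00 kb upstream of the start (chr10:117149973-117150725). The most widely linked Mdm2 region lay in Cpm (chr10:117120893-117121642), with 5 promoter fragments, of Mdm2 and 3 other genes. Of the Mdm2 calls, 61.1% lay in runs of adjoining regions, and the longest run, 8 regions over 2151 bp next to the internal fragment (chr10:117130871-117133022), was the longest of the 9 genes. Few Mdm2 regions were shared with other genes: the Jaccard index was 0.0598 with Cpm (7 regions) and 0.0545 with Nup107 (6 regions).

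Mdm4 had 54 interactions in replicate 1 but 10 in replicate 2, a 5.4-fold difference, and 3 calls from its only fragment (chr1:134921590-134922283). The calls lay 7.22 and 5.32 kb downstream, inside Mdm4 (chr1:134914612-134914826 and chr1:134915769-134917469), and 5.00 kb upstream in intergenic sequence (chr1:134926365-134927504). They were linked to no other promoter fragment.

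Of the cell cycle targets, Cdkn1a, the gene of the cyclin-dependent kinase inhibitor p21, had 211 and 112 interactions, and its 58 calls were 27.5% of the former (21.6 to 34.0) and 51.8% of the latter (42.1 to 61.3). They came from 3 fragments: the annotated gene start (chr17:29226129-29228788) with 39 and 17 interactions and 6 calls, a 146-bp fragment at a start 2.79 kb further in (chr17:29230633-29230779) with 67 and 38 and 19 calls, and a fragment 7.23 kb in (chr17:29234642-29235811) with 105 and 57 and 33 calls. Of 45 distinct regions, 11 were called from more than 1 fragment and 2 from all 3. The one of these 2 whose sequence is printed first above lay 5.40 and 2.16 kb downstream of the first and second fragments and 2.36 kb upstream of the third. The other (chr17:29181636-29182842) lay 45.2 to 52.99 kb upstream and was linked to 11 promoter fragments, among them those of Srsf3 (listed as Sfrs3), a splicing factor, Stk38, Cpne5, Ppil1 and RP23-73N16.3.

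The Cdkn1a calls lay farther out than those of the other genes, with a median of 28.3 kb, and 27 of the 58 lay within 25 kb. Of all calls, 24.2% lay under 5 kb, 24.7% from 5 to 10 kb and 25.5% from 10 to 25 kb. The Cdkn1a calls divided evenly into 29 upstream and 29 downstream. Cpne5, the gene of a copine, held 11 and the noncoding gene Gm16197 held 10, against 8 in Cdkn1a itself, 5 in Gm16194 and 1 in Srsf3. The nearest called region lay 1.99 kb from the third fragment (chr17:29237029-29237409) and the farthest 143 kb from it (chr17:29377537-29378029). By called regions Cdkn1a was most like Srsf3 (Jaccard index 0.151, 8 shared) and Gm16197 (0.104, 5 shared), and the 8 regions were 17.8% of those of Cdkn1a and 50% of those of Srsf3.

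Ccng1, the gene of cyclin G1, had 11 interactions in replicate 1 and 40 in replicate 2, of which 17 spanned over 1 Mb. Its 2 calls lay 2.30 kb upstream (chr11:40571349-40571683) and 7.35 kb downstream, over the end of the gene (chr11:40561378-40562361). Neither region was linked to another promoter fragment.

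Of the apoptosis targets, Bbc3, the gene of the BH3-only protein PUMA, had 130 interactions in replicate 1 and 23 in replicate 2, a 5.65-fold difference. Its 10 calls were 7.69% of the former (3.75 to 13.7) and 43.5% of the latter (23.2 to 65.5). The fragment with 7 of them (chr7:16893307-16894951) ends 14 bp before the annotated start, and in the combined list of the study these 7 are named for the fragment chr7:16895047-16895579 in its place. A fragment 3.901 kb inside the gene (chr7:16898417-16899110) had the other 3. A region of 2201 bp (chr7:16879925-16882126) was called from both, 13.1 and 17.7 kb upstream, and 7 of the 10 calls were intergenic. The nearest lay 3.24 kb (chr7:16901621-16902388) and the farthest 23.7 kb downstream in Sae1, of a SUMO-activating enzyme (chr7:16917625-16917962). None was linked to another gene.

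Bax, whose protein permeabilizes the outer membrane of mitochondria, had 42 interactions in replicate 1 and 7 in replicate 2, a 6-fold difference, and 4 calls from a fragment of only 69 bp (chr7:52722209-52722278). All 4 lay downstream, 3 inside Bax at 3.04 to 3.49 kb and 1 in Gys1, the gene of glycogen synthase, at 10.5 kb. The Gys1 region (chr7:52711365-52712068) was linked to 25 promoter fragments, of Bax and 17 other genes, more than any other called region of the 9 genes. Of the genes most like Bax, Ntf5 (Jaccard index 0.25) and Dhdh (0.2) shared this region. Ftl1, which encodes the ferritin light chain and was picked after its values were seen, shared all 4 regions of Bax, which were 20% of its own 20.

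**Figure D3:**
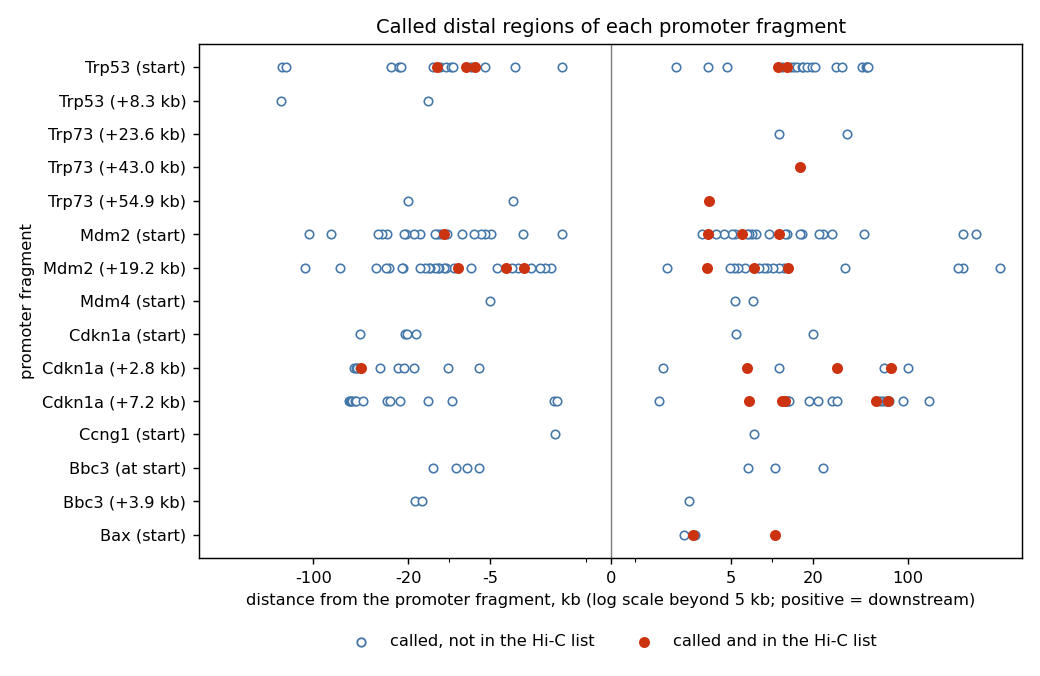
Distance in kb (x axis, log scale beyond 5 kb, positive downstream in the direction of transcription) from each promoter fragment (y axis, with its distance into the gene) to its called distal regions, 1 point per interaction. Filled points were also in the Hi-C list, and calls of Mdm2 and Trp53 in that list lay within 12.997 and 12.8 kb whereas those of Cdkn1a reached 75.8 kb.

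Hi-C, which has no capture step, listed 78 interactions of 8 of the 9 genes: 22 for Cdkn1a, 18 for Mdm2, 12 for Trp53, 10 for Trp73, 5 for Ccng1, 4 each for Mdm4 and Bbc3, and 3 for Bax. Of the 78, 48 were in HiCap replicate 1 (61.5%, interval 49.8 to 72.3), against 32.9% of all Hi-C interactions. In replicate 2 there were 33 (42.3%, interval 31.2 to 54.0), against 22.3% of all. Both HiCap lists held 28 (35.9%, interval 25.3 to 47.6), against 15.8% of all, and neither held 25. Read the other way, 28 of the 212 called interactions were in Hi-C (13.2%, interval 8.96 to 18.5), close to 12.5% of all calls. These 28 were 10 of Mdm2, 9 of Cdkn1a, 5 of Trp53 and 2 each of Trp73 and Bax. None of the 12 called interactions over 100 kb, of which 7 were of Mdm2, 3 of Trp53 and 2 of Cdkn1a, was in the Hi-C list. All 12 spanned 100 kb to 1 Mb, and over all calls of that class only 2.48% (147 of 5927) were in it.

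The share of interactions found in the other replicate was lower at long distances. For the 9 genes in replicate 1 it was 45.6% under 5 kb (34.3 to 57.2), 38.6% from 10 to 25 kb (31.7 to 45.8) and 7.79% from 100 kb to 1 Mb (4.09 to 13.2), against 31.6%, 20.1% and 7.46% over all interactions. In replicate 2 the corresponding shares were 66.7% (52.5 to 78.9), 62.8% (53.6 to 71.4) and 6.74% (3.53 to 11.5), against 58.0%, 33.7% and 3.48%. The gap between the 9 genes and all interactions was thus widest from 10 to 25 kb in both lists. These shares pool the 9 genes, and most of their calls were of Mdm2, Cdkn1a and Trp53. None of the 120 interactions over 1 Mb that replicate 2 listed for the 9 genes was in replicate 1, which listed 1, a Trp53 interaction. Over all genes, 66 of 107701 interactions over 1 Mb in replicate 2 (0.0613%) were in replicate 1. Over 15 kb, the called share of the 9 genes was 17.7% of replicate 1 (14.6 to 21.2), against 12.6% of all interactions, and 18.2% of replicate 2 (14.95 to 21.7), against 8.29%. At that distance 5 of the 9 genes had a call, against 41.3% of all genes, and 6.32% of their calls were in Hi-C, against 5.35%. Where a region of the other replicate within 1 kb was accepted, 58.6% and 50.8% of the interactions of replicates 1 and 2 were shared, against 48% and 34% of all. With the same tolerance 42.9% of the calls had a Hi-C region, against 35.1% of all calls.

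**Figure D4:**
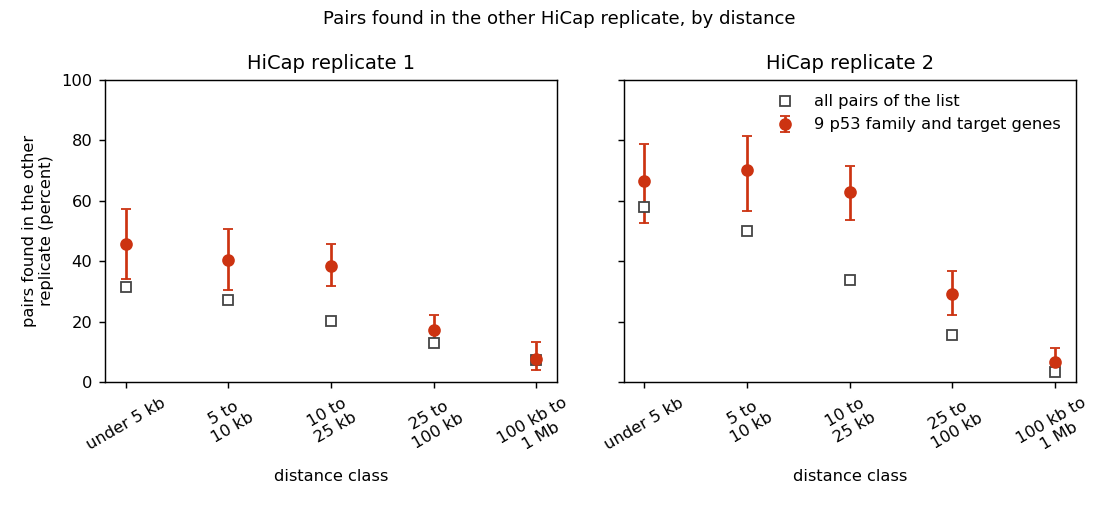
Share of interactions found in the other HiCap replicate (y axis, percent) by distance class (x axis), for the 9 genes pooled (filled points with exact 95% intervals) and for all interactions of the list (open squares), in replicates 1 and 2. From 10 to 25 kb the 9 genes stand at 38.6% and 62.8%, above 20.1% and 33.7% for all interactions.

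Promoter fragments with many interactions were set beside one another. Over the 3494 promoter fragments with at least 30 interactions in each replicate, the median called share was 24.6% of replicate 1 (quartiles 17.9 and 32.8) and 19.5% of replicate 2 (quartiles 13.6 and 26.8). The Trp53 start had 50.7% and 30.3%, and the Mdm2 start 47.3% and 29.1%. The internal Mdm2 fragment had 30.9% and 31.1%. The second Cdkn1a fragment had 28.4% and 50%, and the third 31.4% and 57.9%. In replicate 2 these 5 fragments all lay above the upper quartile, and in replicate 1 both start fragments did.

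The replicates differed in reach. The median distance of the interactions of the 9 genes was 29.2 kb in replicate 1, 59.7 kb in replicate 2 and 12.9 kb among the calls. Over all genes it was 19.8 kb in replicate 1, 101 kb in replicate 2 and 10.3 kb among the calls. For Trp53 it was 19.7, 109 and 14.2 kb, and for Mdm2 30.7, 105 and 11.0 kb. Cdkn1a had 40.7 kb in replicate 1 and 42.1 kb in replicate 2, so that the difference between the lists seen at Trp53 and Mdm2 was not seen there. The median was longer in replicate 2 for Trp63, Trp73, Ccng1 and Bbc3 as well, but shorter for Mdm4, with 22.5 kb in replicate 1 and 12.9 kb in replicate 2, and for Bax, with 25.7 and 3.49 kb. Over 1 Mb in replicate 2 lay 59 of 299 interactions of Mdm2, 26 of 128 of Trp53, 17 of 40 of Ccng1 and 3 of 112 of Cdkn1a. For the 9 genes together this was 17.3%, against 19.4% of all interactions of that list.

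**Figure D5:**
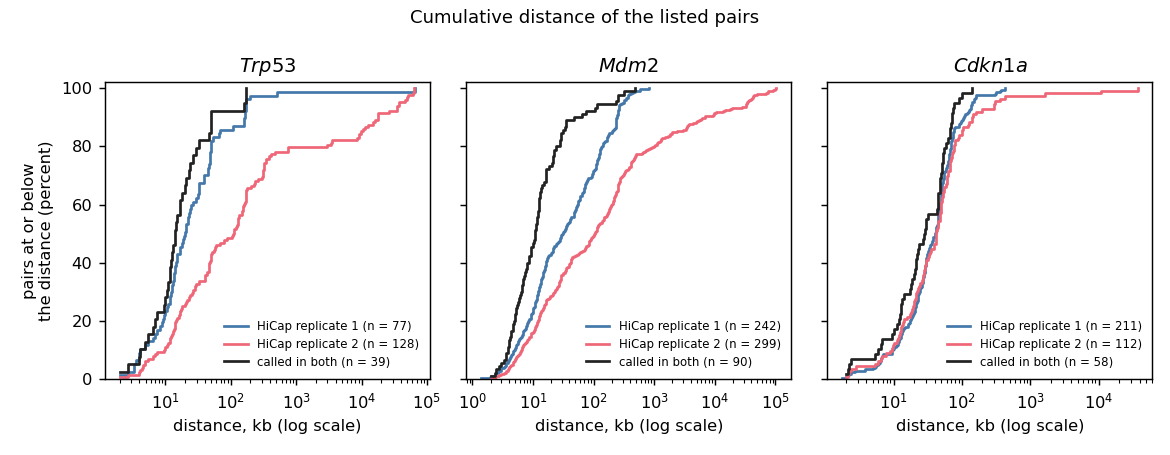
Cumulative share (y axis, percent) of the interactions of Trp53, Mdm2 and Cdkn1a at or below the distance on the x axis (kb, log scale), in HiCap replicate 1, HiCap replicate 2 and among the calls. The medians of the replicates are 19.7 and 109 kb for Trp53, 30.7 and 105 kb for Mdm2, and 40.7 and 42.1 kb for Cdkn1a.

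The called regions of the 9 genes were like those of all genes in where they lay. Inside the linked gene were 31.6% (25.4 to 38.3), inside another gene 34.0% (27.6 to 40.8) and between genes 34.4% (28.1 to 41.2), against 31.8%, 33.4% and 34.9% of the 87670 calls whose gene symbol the annotation holds. Upstream of the promoter lay 50.5% (43.5 to 57.4), against 47.8% of the same calls. A region linked to no other promoter fragment made up 50% (43.1 to 56.9), against 64.2% of all 94896 calls, and a region linked to another gene 30.7% (24.5 to 37.3), against 33.5%. A region linked to several fragments of 1 gene, as at Mdm2 and Cdkn1a, enters neither of these counts unless another gene was linked to it. In runs of adjoining regions lay 44.8%, against 28.0% of all calls. The single genes differed: inside the linked gene lay 40 of 90 calls of Mdm2 and 6 of 6 of Trp73. For Cdkn1a this was 8 of 58 and for Trp53 5 of 39. Regions linked to another gene took 26 of 39 calls of Trp53, 17 of 58 of Cdkn1a and 15 of 90 of Mdm2.

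The p53 decamer was searched as an exact match, which covers both strands because the motif is its own reverse complement. A full element was taken as 2 decamers with a spacer of 0 to 13 bases and at most 2 mismatches outside their cores. At least 1 decamer was in 42 of the 181 called regions of the 9 genes (23.2%, interval 17.3 to 30.04), against 22.9% of all 71955 called regions, and a full element in 14 (7.73%, interval 4.29 to 12.6), against 8.06%. The regions averaged 721 bp and 47.2% G+C, against 696 bp and 46.4%. A match is a description of the letters and no evidence of binding.

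The matches with at most 1 mismatch lay in the windows printed above and in 1 further Mdm2 region over a UTR of Cpm. The element of the Mdm2 intron (chr10:117136977-117136996) lay in the region that Hi-C listed from both Mdm2 fragments. That upstream of Mdm2 (chr10:117154792-117154811) lay in a region called from the gene start, at 6.58 kb. The element of Bbc3 (chr7:16901203-16901223) lay inside that gene, in a region 6.69 kb downstream of the first fragment. In the Mdm4 region of 1700 bp, 4 matches overlapped one another. Among the promoter fragments of the 9 genes, 7 of 18 held a decamer and 2 a full element, against 22.3% and 6.89% of 30572 fragments. The Cdkn1a start fragment held a full element without a mismatch and a spacer of 12 bases (chr17:29227851-29227882), overlapped by one with no spacer and 1 mismatch (chr17:29227873-29227892). The other fragment with a match was that of Bbc3.

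Of 79 other genes of the p53 pathway, listed from textbook knowledge, 65 were named in a HiCap list, and 52 of these had a call (80%, interval 68.2 to 88.9), against 60.8% of all listed genes. Their median numbers of interactions were 24 and 25 in replicates 1 and 2, against 12 and 11 over all genes, and the part of this in the share was not tested. The median number of calls of the 65 genes was 2. All 10 metabolism and stress targets had a call, as had 8 of 9 cell cycle and repair targets, 15 of 23 apoptosis genes, 6 of 7 cofactors, 6 of 7 ligases and related enzymes, and 7 of 9 upstream sensors and kinases.

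Among the sensors Rpl5, a ribosomal protein that binds MDM2, had 112 calls, more than any of the 9 genes, followed by the kinase genes Hipk2 with 11 and Trp53rk with 4. Of the ligases and related enzymes, Usp7, a deubiquitinase of p53 and MDM2, had 29, the ligase gene Huwe1 11 and the ligase gene Rchy1 10. Of the cofactors, the acetyltransferase genes Ep300 and Kat5 had 22 and 10 and the methyltransferase gene Prmt5 had 7. Of the metabolism and stress targets, the thrombospondin gene Thbs1 had 19. Among the cell cycle targets the antiproliferative gene Btg2 had 31, Trp53inp1 14 and the kinase gene Plk3 9. Of the apoptosis genes Bcl2l1, of an inhibitor of apoptosis, had 16, the effector Bak1 13 and Bid, of a BH3-only protein, 9. Without a call were 8 apoptosis genes, among them Bcl2 with 27 and 5 interactions and Apaf1 with 1 and none.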

How the data were processed

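The R1 mESC libraries, 2 of HiCap and 2 of Hi-C, were examined through 4 deposited lists. The authors aligned the read ends of HiCap separately to mm9, discarded multi-mapping reads, exact duplicates and close pairs, assigned the ends to MboI fragments and set a minimum of read pairs. For Hi-C this is not given in the sources used here. The deposited values are positions of promoter fragments and distal regions and hold no count of reads, so depth is unknown here. The low number of libraries and the differing reach of the replicates limit what a missing interaction can show.

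Here, interactions were distinct combinations of gene, promoter fragment and distal region, and distance was taken between midpoints. Listed starts of distal regions are the position before the first base of GATC, and those of promoter fragments lie 2 bases further (99.999% and 99.994% of ends at GATC). Shares carry exact binomial 95% intervals (scipy 1.17.1). Genes, exons, UTRs and sequence came from GENCODE and the genome of mm9 (pysam 0.24.0, pandas 2.3.3). The overlap and motif functions were tested on simulated lists with known overlaps, and recovered them. The genes and lists were chosen with earlier results of these data known. Named were the 9 genes, the 3 pathway genes with the most called regions per role, for each of the 9 the 2 genes with the highest Jaccard index, the genes whose body holds a called region, and the nearest, farthest and most widely linked regions. Other genes and regions were picked after their values were seen. Some pathway genes that this rule names are not reported here. Alternatives were 1 replicate alone, the combined list of the study, interactions over 15 kb, a tolerance of 1 kb, genes in place of fragments, merged regions and stricter motifs. Capture-C was not analysed here.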

Additional observations from a re-analysis of the deposited data

How the results depend on the processing

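The combined list of the study also gave 212 interactions and 8 genes, with the same Hi-C and motif shares, and 205 of the 212 were identical, the other 7 being those at the Bbc3 start named for another fragment. With 1 replicate alone the 9 genes had 695 to 807 interactions and 9 of 9 genes were listed, with a median distance of 29.2 to 59.7 kb in place of 12.9 kb. With interactions over 15 kb only, 95 remained of the 212, 5 of the 9 genes had one (41.3% of all genes did) and 30 of the 65 other pathway genes did, in place of 52. The called share then was 17.7% of replicate 1 (12.6% of all interactions) and 18.2% of replicate 2 (8.29% of all), and 6.32% of the calls were in Hi-C (5.35% of all). Accepting a region within 1 kb gave 473 interactions, shares of 58.6% and 50.8% (48% and 34% of all interactions) and a Hi-C share of 42.9% (35.1% of all calls), and Trp63 then had 1. With gene and distal region as the unit, the share of replicate 1 was 31.9% (20.2% of all interactions) and that of replicate 2 was 33.9% (17.8% of all). A full p53 element with at most 1 mismatch was in 5 of the 181 called regions of the 9 genes (2.76%, interval 0.903 to 6.33), against 1.88% of all called regions. One with no spacer was also in 5 (2.76%, interval 0.903 to 6.33), against 0.635% of all. The regions with no spacer were all of Mdm2 or Mdm4. Mdm2 had 56 calls once adjoining regions were merged. Of 63 values for single genes under the alternatives, 35 moved by over 1.5 times. No paired analysis was possible because each HiCap replicate has 1 list and the results come from no test. With 2 lists and no read numbers, an interaction absent from a list cannot be told apart from one below the read minimum.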
